A study of Mus musculus with 16 samples.

Results

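The mouse Klk1 group is a family of closely related serine protease genes that lie side by side on chromosome 7, and 10 of its genes, Klk1, Klk1b1, Klk1b3, Klk1b5, Klk1b11, Klk1b21, Klk1b22, Klk1b24, Klk1b26 and Klk1b27, were followed here in skin wounds. Every probe whose accession mapped to these symbols through the RefSeq table was taken. All 10 genes were on the array, among 20832 named genes, through 11 probes: Klk1b26 had 2 and each of the other 9 genes had 1. RNA came from whole wounds, with the skin around them, of female mice with 2 full-thickness wounds of 4 mm on the back. The WT group was C57BL/6J mice aged 10 to 12 weeks with untreated wounds. The db/db group was C57BLKS/J Iar mice aged 10 weeks that carry 2 copies of the db mutation of the leptin receptor gene, a model of type 2 diabetes, also with untreated wounds. The db/db + estrogen group was db/db mice whose wounds received estradiol benzoate in sesame oil at 0.75 μg/g daily, and the db/db + vehicle group was db/db mice given only the sesame oil. For every group there were 2 arrays at day 7 and 2 at day 14 after wounding, by their labels, 16 in all, which the submitters describe as biological replicates. The members were chosen by earlier results of these arrays: 2 of them, Klk1b11 and Klk1b27, were selected on their differences between the db/db groups with and without estrogen. Strain and diabetes cannot be told apart in any comparison with WT, and in these bulk samples fewer cells of a type and less RNA per cell cannot be told apart.

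Tissue kallikreins are secreted serine proteases. Klk1, the only member of the group with a clear counterpart outside rodents, releases kinins from kininogen, and kinins act on the B2 and B1 receptors to widen vessels, raise their permeability and cause pain. The Klk1b genes arose by duplication in rodents and are best known from the submandibular gland of the mouse, where several are under the control of androgens. Some of their products bind or process growth factors: Klk1b22 is an epidermal growth factor-binding protein, and Klk1b26 is known as an epidermal growth factor-binding protein and as a prorenin-converting enzyme. Klk1b21, Klk1b24 and Klk1b27 have been described in Leydig cells of the testis. The kallikreins Klk4 to Klk15, which lie next to the group on the same chromosome, include the proteases that act in the shedding and barrier of the epidermis.

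The starts of these genes are much alike, which is why they are shown before the values: the sequences below are those of the members with the 4 largest differences between estrogen-treated and untreated db/db wounds labelled day 7. Each is the 300 bases from 250 before to 50 after the annotated start, from RefSeq on GRCm38.p6, which had an entry for all 10 members. Capitals mark AGGTCA (or TGACCT, the same letters on the other strand), the core motif that many nuclear receptors bind. They also mark AGAACA (or TGTTCT), a core motif of several steroid receptors, and TTTAAA, a variant of the TATA box. Whether TTTAAA acts as a TATA box in these genes was not tested.
Klk1b11 (chr7:43995627-43995926, plus strand): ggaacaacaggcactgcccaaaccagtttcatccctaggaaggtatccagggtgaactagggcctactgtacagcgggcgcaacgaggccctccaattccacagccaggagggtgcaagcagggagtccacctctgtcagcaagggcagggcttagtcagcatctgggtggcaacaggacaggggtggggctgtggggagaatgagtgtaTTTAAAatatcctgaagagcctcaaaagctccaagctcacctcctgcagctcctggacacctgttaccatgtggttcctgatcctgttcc
Klk1b27 (chr7:44052040-44052339, plus strand): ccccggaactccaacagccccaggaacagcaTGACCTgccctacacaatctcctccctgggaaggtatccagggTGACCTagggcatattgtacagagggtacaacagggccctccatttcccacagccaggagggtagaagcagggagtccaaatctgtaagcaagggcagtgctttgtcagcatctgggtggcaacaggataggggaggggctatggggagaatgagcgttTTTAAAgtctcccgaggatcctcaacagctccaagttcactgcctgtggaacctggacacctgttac
Klk1 (chr7:44225110-44225409, plus strand): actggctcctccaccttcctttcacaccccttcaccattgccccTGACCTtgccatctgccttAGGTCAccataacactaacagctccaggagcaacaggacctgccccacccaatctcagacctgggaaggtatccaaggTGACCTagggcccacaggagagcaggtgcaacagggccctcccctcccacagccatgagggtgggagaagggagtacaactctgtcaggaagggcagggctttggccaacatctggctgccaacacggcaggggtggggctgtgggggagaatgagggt
Klk1b24 (chr7:44187986-44188285, plus strand): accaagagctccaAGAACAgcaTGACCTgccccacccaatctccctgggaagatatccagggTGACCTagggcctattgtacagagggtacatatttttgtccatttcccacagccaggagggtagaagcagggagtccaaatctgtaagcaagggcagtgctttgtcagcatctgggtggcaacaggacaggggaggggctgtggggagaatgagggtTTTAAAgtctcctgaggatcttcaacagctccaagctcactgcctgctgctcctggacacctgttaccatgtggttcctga
Among all 32851 promoters of the table, 16.3% held AGGTCA on either strand, and 8 of the 10 member promoters did, all but those of Klk1b11 and Klk1b26. TTTAAA, which reads the same on both strands, was in 13.2% of all promoters and in 9 of the 10, all but that of Klk1. The Klk1 sequence ends with gagaatgagggt, the letters directly before TTTAAA in Klk1b24, so its lack of TTTAAA may only reflect where the sequence taken ends. Counted in bases from the annotated start, the first base of TTTAAA lay between -42 (Klk1b5) and 5 (Klk1b21). AGAACA was in 19.0% of all promoters and in 2 of the 10, those of Klk1b3 and Klk1b24. The canonical TATAAA was in 13.6% of all promoters and in none of the 10, and the consensus estrogen response element, in which the GGTCA of AGGTCA faces its own mirror image, in 0.07% and in none of the 10. The member promoters share ancestry, so they are not separate instances of a motif. Over the 45 pairs of member promoters the aligned bases were 80.2% to 97.7% identical, with a median of 85.8%, and Klk1b21 and Klk1b24 were the most alike. With genes this similar, RNA of one gene may bind the probe of another, and probe sequences were not used here, so a value below is that of a probe named for the gene.

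A level is given throughout as the log2 of the background-subtracted signal of a probe minus the log2 of the 75th percentile of its array, so that 0 is the level of the 75th percentile and each unit is a doubling. Levels of different probes are not comparable with each other. The 75th percentile of the signal lay between 1091 and 2549 intensity units over the 16 arrays, 70.1% to 79.0% of the probes were well above background, and no spot was saturated. All 9 epidermal keratinocyte markers on the array were well above background on at least 1 array. The 8 arrays labelled day 7 were scanned on another day than those labelled day 14, so the labelled day and the scan day cannot be told apart. Among the arrays labelled day 7, replicate 1 of every group was on one slide and replicate 2 on the other. Those labelled day 14 were laid out differently, with both db/db arrays on one slide and both WT arrays on another. Replicate 1 of the estrogen and vehicle groups was on the slide of these db/db arrays, and replicate 2 on that of the WT arrays.

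A gene is called below where limma's unadjusted p was under 0.05 and the fold change above 2, which were the thresholds of the study, in a model of all 16 arrays and all probes. The adjusted p given beside each difference is limma's, after Benjamini-Hochberg adjustment over all probes tested in that comparison. The study's list of genes specific to estrogen, which holds Klk1b11 and Klk1b27, was made from comparisons that correspond to the arrays labelled day 14. The paper prints those comparisons under the other day, so the deposited labels and the paper disagree on which day is which, and the days given here are those of the labels throughout. Therefore the arrays labelled day 14 are described without a test, and the 4 comparisons on the arrays labelled day 7 were tested. With 2 arrays in each group, an exact permutation test of a single gene could not give a p below 0.333, so each adjusted p rests on the spread that limma shares among probes.

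To see how the wounds under estrogen differed from untreated diabetic wounds, the db/db + estrogen group was compared with the db/db group on the arrays labelled day 7. Of the 10 members 9 were tested, and 8 of them were higher in the db/db + estrogen group: Klk1, Klk1b3, Klk1b5, Klk1b11, Klk1b21, Klk1b22, Klk1b24 and Klk1b27. Over all probes tested 5.26% were called higher and 4.74% lower. No member was lower, and the median log2 difference of the 9 was 2.09, beside 0.04 for all probes. All 8 also had an adjusted p below 0.05, and 7 of 8 were called when all 4 arrays had to be above background, which left out Klk1b27. Over all probes, 2.47% had both an adjusted p below 0.05 and a more than 2-fold higher level.

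Klk1b11 had the largest difference. Its levels on the arrays labelled day 7 were -6.22 and -6.60 in the db/db group and -0.45 and -0.26 in the db/db + estrogen group. Both estrogen arrays were far above both db/db arrays, a difference of 66.5-fold (log2 difference 6.06, SE 0.78, adjusted p = 0.00241). The probe has 10 spots on each array, and every spot used was well above background on these 4 arrays. Within the slide of replicate 1 the difference was 5.77 on the log2 scale, and within the slide of replicate 2 it was 6.34.

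Neither db/db array was well above background for Klk1b27, with levels of -9.05 and -9.42, and reached -5.19 and -4.94 in the db/db + estrogen group. It entered the test only through the group in which it was high. Since its db/db level is only a bound, the difference was at least 5.08-fold. Its adjusted p of 0.00104 comes from a fit against db/db signals below background, and not from that bound. Under normexp background correction, which adds a fixed offset of 50 to every signal, its log2 difference was 1.0 and the call was lost.

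Klk1, the kinin-releasing member, was measured at -7.22 and -6.67 in the db/db group and at -3.89 and -3.79 in the db/db + estrogen group. The groups did not overlap, and the difference was 8.60-fold (log2 difference 3.10, SE 0.31, adjusted p = 0.000629). For Klk1b24 the levels were -5.56 and -5.04 against -2.65 and -2.50. This was 6.60-fold higher with estrogen (log2 difference 2.72, SE 0.23, adjusted p = 0.000399). The growth factor-binding member Klk1b22 was at -5.03 and -4.52 without and at -2.72 and -2.63 with estrogen, a 4.27-fold rise (log2 difference 2.09, SE 0.49, adjusted p = 0.0340).

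Klk1b3 rose from -5.41 and -5.03 to -3.45 and -3.46, which was 3.41-fold (log2 difference 1.77, SE 0.28, adjusted p = 0.00550). Klk1b5 rose from -3.90 and -4.95 to -2.68 and -2.78, 3.24-fold (log2 difference 1.69, SE 0.41, adjusted p = 0.0386). Klk1b21 rose from -3.62 and -3.24 to -1.92 and -1.86. In these 3 genes too, which had been picked by p and fold change, both estrogen arrays were above both db/db arrays. The rise of Klk1b21 was 2.92-fold (log2 difference 1.54, SE 0.18, adjusted p = 0.00156). The 2 estrogen arrays labelled day 7 were close to each other in all 8 genes called, with SDs of 0.01 to 0.18 on the log2 scale, whereas the SDs of the db/db arrays were 0.26 to 0.74.

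**Figure D1:**
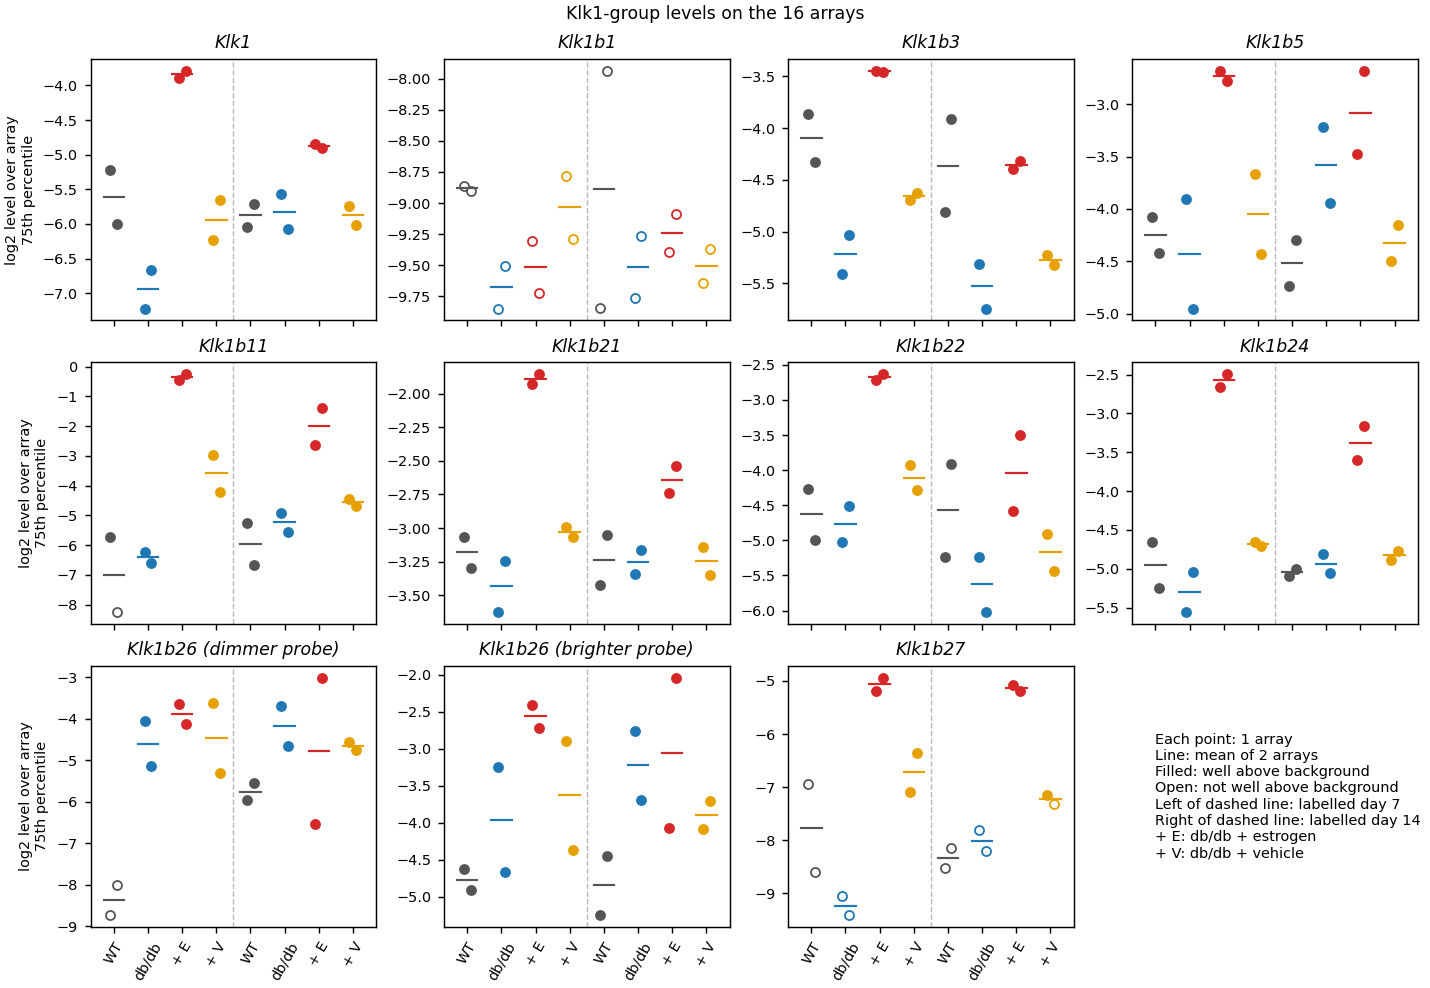
Levels of the 11 probes of the 10 members on each of the 16 arrays (y axis, log2 of the signal over the 75th percentile of the array, with a separate scale for each probe) by group and labelled day (x axis). Points are arrays, lines are means of 2 arrays, and open points were not well above background; on the arrays labelled day 7 both db/db + estrogen points lie above both db/db points for every member except Klk1b1 and the dimmer probe of Klk1b26.

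The brighter probe of Klk1b26 was at -3.24 and -4.67 in the db/db group and at -2.41 and -2.71 in the db/db + estrogen group. The log2 difference was 1.39 (SE 0.72, adjusted p = 0.308), and it was not called. The db/db arrays were themselves 1.43 apart, and without db/db day 7 replicate 1 the difference was 2.11 and passed both thresholds. It also passed them, at the same difference, with the slide or the replicate number as a fixed block. Its other probe was at -4.05 and -5.14 in the db/db group and at -3.63 and -4.12 in the db/db + estrogen group, where the arrays overlapped. Klk1b1 was not well above background on any of the 16 arrays and was not tested in any comparison.

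The comparison of the db/db + estrogen group with the db/db + vehicle group sets estrogen in oil against the oil alone. It shares its estrogen arrays with the comparison above. Again 8 of 9 members tested were higher with estrogen, the 8 genes named above, and no member was lower, where 4.72% of all probes were called higher and 4.36% lower. The median log2 difference of the 9 was 1.43, beside 0.01 for all probes. With the adjusted p, 5 of the 8 passed, namely Klk1, Klk1b3, Klk1b11, Klk1b21 and Klk1b24, where 1.69% of all probes did. Under normexp background correction 4 members were called instead of 8, and Klk1b3, Klk1b5, Klk1b21 and Klk1b27 were the calls lost.

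Klk1b11 was at -2.96 and -4.21 on the vehicle arrays, below both estrogen arrays. The difference was 9.39-fold (log2 difference 3.23, SE 0.78, adjusted p = 0.0473). Klk1b24 was at -4.66 and -4.71 with vehicle, and its 4.32-fold difference was measured with little spread in either group (log2 difference 2.11, SE 0.23, adjusted p = 0.00317). Klk1 was at -6.24 and -5.66 with vehicle, 4.31-fold below the estrogen arrays (log2 difference 2.11, SE 0.31, adjusted p = 0.00820).

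Klk1b27, now above background on all 4 arrays, was at -7.09 and -6.36 with vehicle, a difference of 3.16-fold (log2 difference 1.66, SE 0.45, adjusted p = 0.0655). The other called members differed by 2.20-fold (Klk1b21, adjusted p = 0.0106), 2.31-fold (Klk1b3, adjusted p = 0.0418), 2.49-fold (Klk1b5, adjusted p = 0.102) and 2.69-fold (Klk1b22, adjusted p = 0.126). In all 8, which had been picked by p and fold change, the arrays of the groups did not overlap. Nor did those of the brighter probe of Klk1b26, which was not called, or of Klk1b1, which was below background. The share of all probes without overlap is not given here. Without db/db + vehicle day 7 replicate 2 the calls of Klk1b5 (log2 difference 0.93) and Klk1b22 (1.26) were lost, and without db/db + estrogen day 7 replicate 2 that of Klk1b22 (1.39).

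How the oil alone differed from no treatment was asked by setting the db/db + vehicle group against the same db/db arrays. Of the 9 members tested 2 were higher, Klk1b11 and Klk1b27, and none was lower, while 2.55% of all probes were called higher and 2.37% lower. Klk1b11 differed by 7.08-fold (log2 difference 2.82, SE 0.78, adjusted p = 0.147), from the levels given above. Klk1b27 differed by at least 1.60-fold, a bound under the 2-fold threshold, and entered the test only through the vehicle arrays. Its adjusted p of 0.0563 comes from a fit against db/db signals below background. When all 4 arrays had to be above background, Klk1b11 was the 1 member called of 8. Neither passed after adjustment, and under normexp background correction the call of Klk1b27 was lost (log2 difference 0.25). Klk1 fell just short of the 2-fold threshold (log2 difference 1.0, SE 0.31, adjusted p = 0.178), and was called without db/db + vehicle day 7 replicate 1 (log2 difference 1.29) or without db/db day 7 replicate 2 (1.27). The log2 differences of the other 6 tested members lay between 0.33 and 0.67. Both treated groups are compared here with the same db/db arrays, so the values with estrogen and with vehicle are not independent.

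Pgr, the progesterone receptor gene and a classical target of the estrogen receptor, was also higher in the vehicle group. Below background on both db/db arrays labelled day 7, it reached -3.76 and -4.11 with vehicle and -1.40 and -1.09 with estrogen. The vehicle level was at least 11.1-fold above the db/db level (adjusted p = 0.000671) and the estrogen level at least 71.3-fold (adjusted p = 1.4e-05). Pgr entered these tests only through the treated groups, so each adjusted p comes from a fit against db/db signals below background. Between the treated groups Pgr was higher with estrogen (log2 difference 2.69, SE 0.35, adjusted p = 0.00532). Whether this rise and those of Klk1b11 and Klk1b27 with vehicle have a common source was not tested. Of the other genes on the list of hormone responses, Greb1, a target of the estrogen receptor, was higher with estrogen than in the db/db group (log2 difference 7.22, SE 0.52, adjusted p = 0.000276) and higher with vehicle too (log2 difference 4.74, SE 0.52, adjusted p = 0.0134). Ltf, which is also on the list of neutrophil markers, was lower than in the db/db group with estrogen (log2 difference -8.82, SE 0.74, adjusted p = 0.000378) and with vehicle (log2 difference -6.91, SE 0.74, adjusted p = 0.0134). The estrogen receptor gene Esr1 was at -3.53 and -3.22 in the db/db group, -2.10 and -1.85 with estrogen and -3.31 and -3.41 with vehicle, and was called higher with estrogen than in the db/db group (log2 difference 1.40, SE 0.36, adjusted p = 0.0438).

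**Figure D2:**
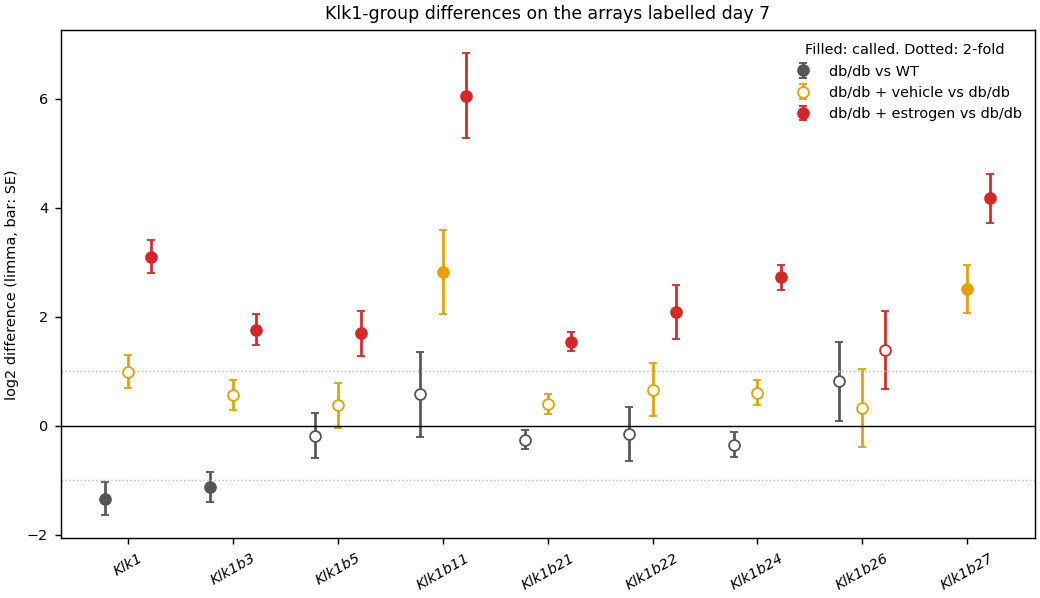
Log2 differences (y axis, limma's estimate with its SE as the bar) of the members tested on the arrays labelled day 7, for db/db against WT, db/db + vehicle against db/db and db/db + estrogen against db/db. Filled points were called, which requires more than 2-fold, and open points were not. The points of Klk1b27 are fitted against db/db arrays below background. Its bounds are log2 differences of at least 2.34 with estrogen and 0.68 with vehicle, the latter under the 2-fold line. Klk1b27 has no grey point because it was below background in both the WT and db/db groups.

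Untreated diabetic wounds were compared with WT wounds to ask how the Klk1 group stood without treatment. Of 8 members tested, 2 were lower in the db/db group, Klk1 and Klk1b3, and none was higher, where 8.48% of all probes were called lower and 5.71% higher. Klk1 was at -5.22 and -6.0 in the WT group, and its db/db level was 2.52-fold lower (log2 difference -1.34, SE 0.31, adjusted p = 0.0180). Klk1b3 was at -3.87 and -4.33 in the WT group and 2.18-fold lower in the db/db group (log2 difference -1.12, SE 0.28, adjusted p = 0.0240). Neither call held without WT day 7 replicate 1, where the log2 differences were -0.95 and -0.89, and that of Klk1b3 did not hold without db/db day 7 replicate 1 (-0.94). Neither held under quantile normalization (-0.93 and -0.85) or normexp (-0.65 and -0.90).

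The other 6 tested members had log2 differences between -0.35 and 0.81. Klk1b11 was at -5.74 and -8.24 on the WT arrays, with none of its 10 spots above background in replicate 2. It was not called (log2 difference 0.58, SE 0.78, adjusted p = 0.654), but was called higher in the db/db group without WT day 7 replicate 1 (1.83), which left that dim array alone. The probes of Klk1b26 differed from each other here. The dimmer probe was at -8.73 and -8.0 on the WT arrays, below background, so that it was tested only through the db/db arrays. Their level was at least 4.0-fold higher, and the adjusted p of 0.0268 comes from a fit against WT signals below background. The brighter probe was above background in both groups, at -4.63 and -4.91 in the WT group, and was not called (log2 difference 0.81, SE 0.72, adjusted p = 0.476). Klk1b27 was below background on all 4 arrays.

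The rest of the locus was then read in the same comparisons. Of the 5 genes of the Klk1 group on the array that are not members, 4 were tested with estrogen against untreated db/db and 3 were higher with estrogen. Klk1b8 was at -4.75 and -4.54 in the db/db group and at -1.90 and -1.63 with estrogen, 7.37-fold higher (log2 difference 2.88, SE 0.24, adjusted p = 0.000378). Klk1b4 was 5.57-fold higher (log2 difference 2.48, SE 0.36, adjusted p = 0.00379), and Klk1b9, another epidermal growth factor-binding protein, was 2.08-fold higher (adjusted p = 0.0912). Klk1b16 was above background on 1 of the 2 db/db arrays and was not called. Against vehicle, Klk1b8 (4.03-fold, adjusted p = 0.00398) and Klk1b4 (4.82-fold, adjusted p = 0.0106) were higher with estrogen.

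Of the epidermal kallikreins next to them, some were lower and none higher with estrogen. Of 11 tested, 5 were lower with estrogen than in the db/db group, Klk6, Klk10, Klk12, Klk13 and Klk14, and the other 6 were not called. Klk6 had the largest fall (log2 difference -4.0, SE 0.70, adjusted p = 0.00905), followed by Klk13 (log2 difference -3.69, SE 0.53, adjusted p = 0.00379). Against vehicle 9 of 11 were lower and none higher, with Klk13 (log2 difference -5.11, SE 0.53, adjusted p = 0.00238) and Klk6 (log2 difference -4.63, SE 0.70, adjusted p = 0.00908) first. Vehicle against db/db gave 3 higher, Klk9, Klk11 and Klk13, none of them after adjustment.

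**Figure D3:**
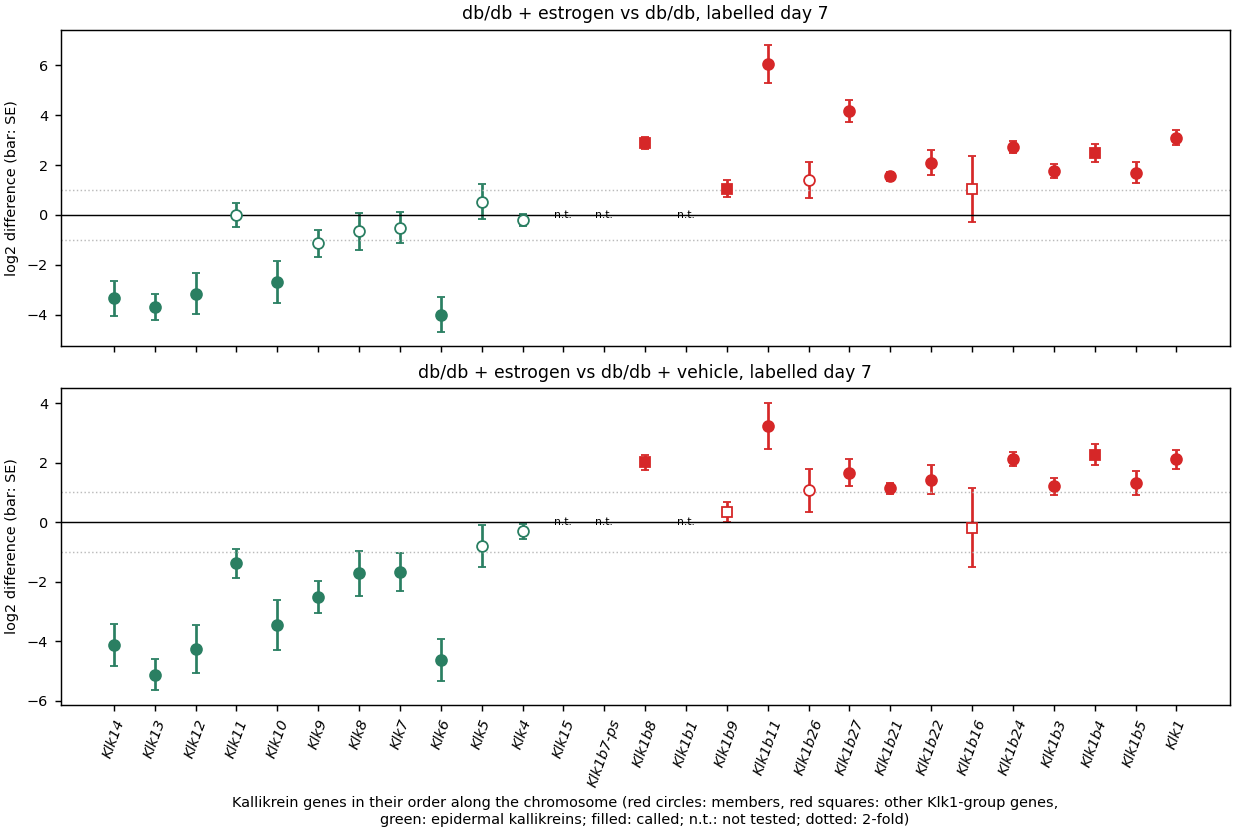
Log2 differences (y axis, limma's estimate with its SE as the bar) on the arrays labelled day 7 of the kallikrein genes, set out in the order in which the genes end along the chromosome (x axis, order only), for estrogen against untreated db/db (top) and against vehicle (bottom). Filled points were called; in both panels every filled green point (Klk4 to Klk15) is below 0 and every filled red point (Klk1 group) is above 0, n.t. marks genes not tested, and the top point of Klk1b27 is fitted against db/db arrays below background.

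Gland markers were read because the Klk1 group is best known from glands. With estrogen against untreated db/db, 9 of the 13 salivary gland markers on the array were tested and none was called in either direction. Smr3a and Dcpp1 were not well above background on any array. Bhlha15 and Bpifa2 of this list were below background in the WT group and tested against it only through the db/db group. The bounds were at least 2.25-fold (adjusted p = 0.0148) for Bhlha15 and at least 1.11-fold, under the 2-fold threshold, for Bpifa2 (adjusted p = 0.00351). Each adjusted p comes from a fit against WT signals below background. The summed level of that list, the log2 of the sum of its scaled signals, was 0.39 to 0.77 with estrogen and -0.22 to 0.22 in the db/db group. Of 10 sweat and mammary gland markers tested 1 was higher, Scgb1b27 (log2 difference 3.58, SE 0.97, adjusted p = 0.0560), and 1 lower, Elf5 (log2 difference -1.71, SE 0.64, adjusted p = 0.156), and Foxa1, Csn1s1, Csn2 and Csn3 were below background on every array. Of 12 sebaceous gland markers 4 were higher and 1 lower, with Scd3, a fatty acid desaturase, among the higher (log2 difference 1.92, SE 0.37, adjusted p = 0.0151) and Dgat2l6, an acyltransferase, the lower (log2 difference -1.97, SE 0.72, adjusted p = 0.146).

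Hair follicle keratins differed between the same groups. With estrogen 8 of 9 were higher than in the db/db group and 6 of 9 higher than with vehicle, with vehicle 4 of 8 were higher than in the db/db group, and 7 of 9 were lower in db/db wounds than in WT wounds. In no comparison was one called the other way. After adjustment 6 passed for estrogen against db/db and 5 for db/db against WT, but 0 for estrogen against vehicle and 0 for vehicle against db/db. Krt25, a keratin of the inner root sheath, was below background on both db/db arrays and at 0.99 and 1.40 with estrogen, at least 388-fold higher (adjusted p = 0.00319). It entered the test only through the estrogen arrays, so that adjusted p comes from a fit against signals below background. The summed level of the list was -0.95 to -0.57 in the db/db group, 0.26 to 2.08 with vehicle, 3.51 to 3.95 with estrogen and 1.07 to 5.25 in the WT group. On the arrays labelled day 14 the sum was -0.67 to 1.27 with estrogen and -0.22 to 0.17 in the db/db group, which overlap. The part of hair follicle tissue in the values of the Klk1 group was not tested.

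Other cell type markers on the same arrays were counted in the same way. All 10 neutrophil markers were lower with estrogen than in the db/db group, and their summed level was 3.30 to 5.01 against 8.84 to 8.96. Against vehicle 7 of 10 were lower. Epidermal keratinocyte markers were 2 higher and 2 lower of 9, with the wound keratins Krt6a (log2 difference -3.09, SE 0.80, adjusted p = 0.0472) and Krt16 (log2 difference -2.82, SE 0.37, adjusted p = 0.00280) the lower pair. Of 8 mast cell markers tested 2 were lower, of 7 adipocyte markers 1 was higher, the lipase gene Lpl, and of 10 skeletal muscle markers 1 was lower, Myh7. Their part in the values of the Klk1 group was not tested.

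Genes that act on either side of the kallikreins were described next. In the kinin pathway the substrate genes Kng1 and Kng2 were not called between estrogen and db/db: Kng1 was at 0.43 and -1.31 in the db/db group and -0.72 and 0.25 with estrogen, and its adjusted p was 0.918. Kng2 had a log2 difference of 0.44 (SE 1.08, adjusted p = 0.864). Klkb1, plasma kallikrein, which releases bradykinin in plasma, had a difference of -0.63 (adjusted p = 0.191) and was not called. Of the 13 substrate and enzyme genes tested, 1 was lower with estrogen, Ace, which degrades bradykinin (log2 difference -1.31, SE 0.57, adjusted p = 0.221), and none was higher.

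The kinin receptors were not higher with estrogen. Bdkrb1, the inducible B1 receptor, was at -5.22 and -4.83 in WT wounds and at -2.22 and -3.55 in db/db wounds, higher in the latter (log2 difference 2.13, SE 0.62, adjusted p = 0.0449). With estrogen it was at -6.07 and -4.42, lower than in the db/db group (log2 difference -2.36, SE 0.63, adjusted p = 0.0515) and than with vehicle (log2 difference -2.03, SE 0.62, adjusted p = 0.0947), although neither fall passed after adjustment. Bdkrb2, the B2 receptor, was below background on both estrogen arrays and not called. Nos2, an inducible nitric oxide synthase, and Ptgs2, which makes prostaglandins, both act after inflammatory signals and were lower with estrogen than in the db/db group (log2 difference -4.93, SE 0.77, adjusted p = 0.00533 and log2 difference -3.71, SE 0.75, adjusted p = 0.0182). None of the 7 kallikrein inhibitor genes tested was called between these groups, and against WT 3 of 7 were higher in the db/db group, led by the serpin gene Serpina3n (log2 difference 2.69, SE 0.60, adjusted p = 0.0159), and 1 was lower.

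Among the growth factors and receptors tied to the group, Ngfr, the low-affinity neurotrophin receptor, was higher with estrogen (log2 difference 5.20, SE 0.77, adjusted p = 0.00434), and it was higher than with vehicle too (log2 difference 3.76, SE 0.77, adjusted p = 0.0290). Egf was at -2.39 and -3.18 in the db/db group and -1.63 and -1.27 with estrogen, and was not called (adjusted p = 0.486). Hbegf, a ligand of the epidermal growth factor receptor, was lower with estrogen (log2 difference -2.09, SE 0.68, adjusted p = 0.102). In all, 1 of the 9 genes of this list was higher with estrogen and 2 were lower, Hbegf and Areg.

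The arrays labelled day 14 are described only, since values that correspond to them put Klk1b11 and Klk1b27 on the study's list. Klk1b11 was at -4.91 and -5.54 in the db/db group, -4.44 and -4.67 with vehicle and -2.63 and -1.39 with estrogen, and -5.26 and -6.68 in the WT group. The estrogen arrays were the highest and did not overlap those of any other group. The estrogen mean was 9.29-fold above the db/db mean and 5.84-fold above the vehicle mean. Klk1b27 was at -5.08 and -5.20 with estrogen and below background on both db/db arrays, at least 4.35-fold lower. With vehicle it was at -7.14 and -7.32, and 1 of these arrays was above background.

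More than 2-fold higher with estrogen than in the db/db group were 5 of 9 members, namely Klk1b3 (2.25-fold), Klk1b22 (3.0-fold), Klk1b24 (2.94-fold), Klk1b11 and Klk1b27, beside 3.63% of all probes. Klk1 differed by 1.93-fold, just under the line, and its arrays did not overlap, at -5.57 and -6.08 in the db/db group and -4.85 and -4.90 with estrogen. Against vehicle 6 of 9 were more than 2-fold higher, Klk1, Klk1b5, Klk1b11, Klk1b22, Klk1b24 and Klk1b27, beside 1.41% of all probes. Klk1, only just past 2-fold, was the nearest to the line. No member of 8 was more than 2-fold higher with vehicle than in the db/db group, where 7.19% of all probes were. Between db/db and WT, Klk1b3 (2.24-fold) and Klk1b22 (2.08-fold) of 8 were more than 2-fold lower in the db/db group, beside 17.6% of all probes, and both fell short of 2-fold when replicate 2 of either group was left out. These db/db and WT arrays lay on different slides, so group and slide cannot be told apart between them. The brighter probe of Klk1b26 was 3.09-fold higher in the db/db group, and its estrogen arrays were far apart, at -4.07 and -2.04.

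Set in order over the 8 groups, as a description, the db/db + estrogen group labelled day 7 had the highest mean of every member that was above background there. For 8 of these 9 members, the exception being Klk1b3, the db/db + estrogen group labelled day 14 came next. Klk1b3 had -3.45 ± 0.01 (mean ± SD, n = 2) with estrogen labelled day 7, then -4.10 ± 0.33 in the WT group labelled day 7 and -4.36 ± 0.06 with estrogen labelled day 14, the latter pair not apart beyond their spread. For Klk1 the order was -3.84 ± 0.07 and -4.87 ± 0.04 in the estrogen groups, 5 groups between -5.61 and -5.95 in which each overlapped the next, and -6.94 ± 0.39 in the db/db group labelled day 7. Klk1b11 fell in clear steps at the top, -0.35 ± 0.13 and -2.01 ± 0.88 with estrogen, then -3.59 ± 0.89 and -4.55 ± 0.17 with vehicle, and the 4 untreated groups below them between -5.23 and -6.99 overlapped each other in turn. Klk1b27 had the same mean, within its spread, with estrogen on both labelled days, -5.06 ± 0.18 and -5.14 ± 0.09. For Klk1b5 and the brighter probe of Klk1b26 each group overlapped the next throughout.

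Klk1, Klk1b3, Klk1b5, Klk1b21, Klk1b22, Klk1b24 and Klk1b26 were above background on all 16 arrays. Pearson's r between 2 of these 7 genes over the 16 arrays ranged from 0.13 to 0.96, with a median of 0.74 over the 21 pairs. The arrays share groups and slides, and the genes may share probe signal, so these values only describe the data. The mean level of the 7 was -2.82 and -2.82 with estrogen labelled day 7 and -3.96 and -3.31 with estrogen labelled day 14, and it lay between -4.94 and -4.15 on the other 12 arrays. Among 15358 genes outside the group with a probe above background on all 16 arrays, those most like this mean were Chp2 (r = 0.95), Nhlrc1 (0.91), Scube1 (0.89), Pde8b (0.89) and Fbxw17 (0.89). Chp2, which encodes a calcineurin-like calcium-binding protein, was at -2.0 and -1.78 in the db/db group and 0.51 and 0.86 with estrogen labelled day 7, and at -0.97 and -0.13 with estrogen labelled day 14.

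**Figure D4:**
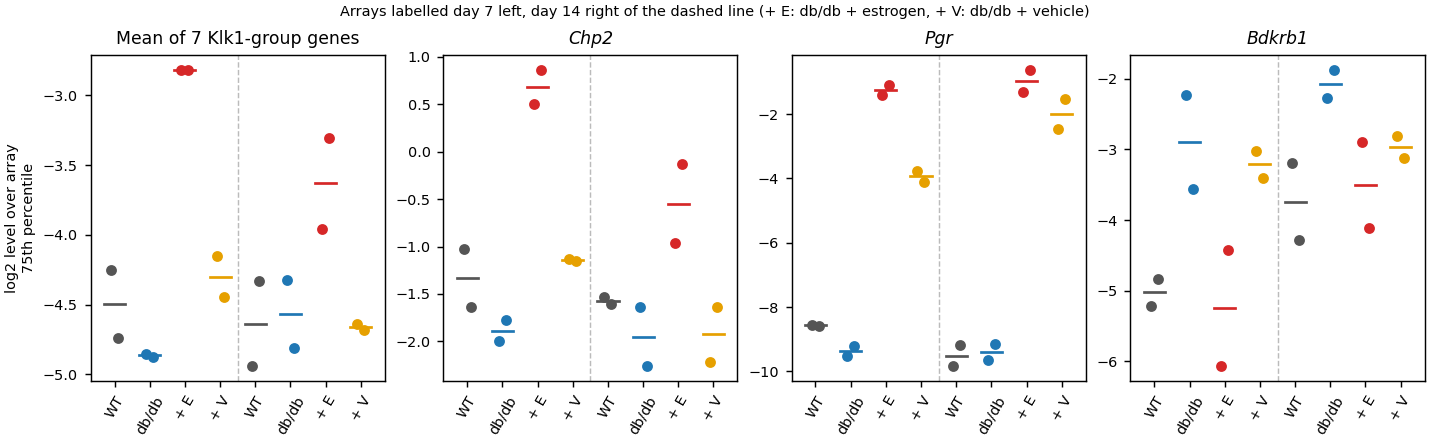
The mean level of the 7 members above background on all 16 arrays, and the levels of Chp2, Pgr and Bdkrb1, on each array (y axis, log2 of the signal over the 75th percentile of the array, a separate scale in each panel) by group and labelled day (x axis). Points are arrays and lines are means of 2 arrays; the member mean is highest on the db/db + estrogen arrays, Pgr is also raised on the db/db + vehicle arrays and was above background on 8 of the 16 arrays, those of the treated groups, and the mean of Bdkrb1 is lowest with estrogen labelled day 7, where its arrays overlap those of the WT group.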

How the data were processed

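RNA from mouse wounds was labelled with Cy3 and hybridised to Agilent 4x44K mouse arrays, 1 colour and 1 array per sample. The intensity values were made by the authors with Agilent Feature Extraction 11.0.1.1, per the file headers, and the processed signal is background-subtracted and spatially detrended within each array but not scaled between arrays. The deposited table of ratios, made by the authors in GeneSpring, holds the processed signal divided by the 75th percentile of its array, as a comparison with the scanner values showed, and was used only as an alternative. The number of arrays limits the precision.

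Here outlier and control spots were left out, spots of a probe were averaged, and log2 signals were set against the 75th percentile of each array. Probes were named through RefSeq (27427 of 39429). limma 3.58.1 in R 4.3.3 fitted 8 groups over the 16 arrays, and a probe was tested where either group compared had both of its arrays well above background. A gene with several probes was read through the brightest. A probe dim on both arrays of a group gave only a bound, "at least": the brighter mean over the lowest signal well above background, or its own where that was higher. The fit was tested on simulated data. Slides, background correction, normalization, filters, floor, thresholds and each array were varied.

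The members and lists were chosen with earlier results of these data known. From the lists, called genes with the largest changes and defining kinin genes were named. More than 2 were named from the list of hormone responses, and not every gene of a count of 5 or fewer was named. The replicate arrays are the submitters' biological replicates. Each p-value rests on the spread between replicates within all 8 groups, shared among probes, and not only on that of the groups compared. Some genes of the lists are not reported here.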

Additional observations from a re-analysis of the deposited data

How the results depend on the processing

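Members called on the arrays labelled day 7 were 8 for estrogen against db/db, 8 for estrogen against vehicle, 2 for vehicle against db/db and 2 lower for db/db against WT. Under normexp background correction these counts were 7, 4, 1 and 0, and with quantile normalization the last was 0. Vehicle against db/db gave 1 with a floor on dim signals, 1 with all 4 arrays required above background and 0 by the adjusted p, by which estrogen against vehicle gave 5. When each array was left out in turn, some calls changed, as given above for each comparison. Without WT day 7 replicate 1 neither member called lower in db/db than in WT stayed beyond 2-fold. Klk1b11 was then more than 2-fold higher in the db/db group. On the arrays labelled day 14, where 5 members were more than 2-fold higher with estrogen than in the db/db group and 6 than with vehicle, normexp gave 2 and 2, and leaving out an array, which was added after the data were seen, gave 4 to 6 and 4 to 6; the 2 members lower in db/db than in WT became 0 under normexp and under quantile normalization, and 0 to 2 without an array, and vehicle against db/db stayed at 0. The direction of a member's difference was not reversed in any tested comparison where it had been called. On the arrays labelled day 7 the replicate number is also the slide. The differences between replicates 1 and 2 correlated from -0.307 to 0.386 between groups over 27056 probes. These correlations differ in sign and do not settle whether arrays of the same number are paired. With a replicate block the 4 counts were 9, 9, 2 and 2, and with the slide as a fixed block 9, 8, 2 and 2; the call gained was that of Klk1b26. Signals near background limit Klk1b1 and Klk1b27, and the causes of the changes above were not tested.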
